A study of Homo sapiens with 2 samples.

Results

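YAP/TEAD target genes are genes whose transcription is driven when the coactivators YAP and TAZ bind TEAD transcription factors on DNA. The 10 described here were chosen from general knowledge of the pathway: CCN1, CCN2, ANKRD1, AMOTL2, MYOF, CRIM1, F3, NT5E, PTPN14 and IGFBP3. All 10 were matched, by symbol and Ensembl identifier, among the 28303 genes listed. CCN1 and CCN2 carry the older symbols CYR61 and CTGF in GENCODE release 29. The genes were measured by RNA sequencing in 2 libraries of the established cell line HGC27, which comes from a human gastric cancer. In the control library the cells had received the empty plasmid pcDNA3.1-control, and in the other pcDNA3.1-linc01133, which expresses the long non-coding RNA LINC01133. Both were harvested 48 h after transfection and share the cell line, the transfection reagent and the plasmid backbone. The design had no replication, so each group is 1 library, no ratio has a replicate check and no test of a difference was possible.

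Depth, in counted fragments, came to 15666629 for the control library and 16302581 for the LINC01133 library. LINC01133 itself had 4 and 74 fragments, in the direction of the labels. The share of cells that took up either plasmid is not given by the labels, and fewer cells with a transcript cannot be told apart from less of it per cell. Of 11 epithelial markers, 9 were listed and none had a mean FPKM of 1 or more (fragments per length of exon and per depth of library). Their summed FPKM was 2.11 and 1.79, and KRT18 was listed at 0 in both libraries. Of 10 mesenchymal markers 9 were past that level, with a summed FPKM of 794 and 819. Among blood and endothelial markers, PTPRC had an FPKM of 0.0305 and 0.0659, VWF had 0.0553 and 0.0236, and CDH5 was listed at 0 in both libraries. Epithelial markers were thus low or at 0 in this line, labelled as gastric cancer. Of 4 gastric markers listed CDX2 had 3.22 and 2.53 while MUC5AC and TFF2 were at 0.

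The Hippo pathway is a kinase cascade that phosphorylates YAP and TAZ and holds them out of the nucleus. When the cascade is off, as in sparse or stretched cells, the coactivators enter the nucleus, bind TEAD proteins and switch on genes of matrix signalling, adhesion and growth. Several targets, among them AMOTL2, PTPN14 and LATS2, encode proteins that restrain YAP and so form a negative feedback. TEAD proteins recognise a short core, GGAATG, and often act beside AP-1, whose core is TGANTCA.

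The stretches of promoter below are shown because they hold these letters close to the start sites of the genes. They come from RefSeq, build GRCh38.p14, and the search covered the 250 bases before each start on both strands (GGAATG or CATTCC for TEAD, TGANTCA for AP-1, which do not overlap here). Capitals mark the matches, and each sequence is written 5′ to 3′ on the strand of the gene, which is the minus strand for all 5. The stretches are chr6:131951442-131951561 for CCN2, chr10:90921190-90921327 for ANKRD1, chr3:134374491-134374536 for AMOTL2, chr1:214551777-214551822 for PTPN14 and chr1:94541943-94542002 for F3.
CCN2: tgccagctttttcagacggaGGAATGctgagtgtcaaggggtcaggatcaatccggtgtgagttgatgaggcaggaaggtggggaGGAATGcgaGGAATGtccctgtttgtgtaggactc
ANKRD1: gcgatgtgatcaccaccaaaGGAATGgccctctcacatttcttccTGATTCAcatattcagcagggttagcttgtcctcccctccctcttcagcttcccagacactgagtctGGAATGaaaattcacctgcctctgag
AMOTL2: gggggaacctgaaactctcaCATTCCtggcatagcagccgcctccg
PTPN14: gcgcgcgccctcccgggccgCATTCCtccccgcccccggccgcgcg
F3: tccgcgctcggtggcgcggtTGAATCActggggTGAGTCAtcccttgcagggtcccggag

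CCN2 held 3 TEAD cores, all GGAATG, starting 169, 104 and 95 bases before the start site, the last pair within a few bases of each other. ANKRD1 held 2, at 220 and 128 bases, with an AP-1 core at 195 bases between them. AMOTL2 has a pair of start sites in the table, and the core, CATTCC, lay 69 bases before the second of them. In PTPN14 the same letters lay 200 bases before the start. F3 held no TEAD core in this window but 2 AP-1 cores, at 223 and 210 bases. Windows were found for 8 of the 10 genes, and 4 of the 8 held a TEAD core, against 14.3% of 27305 genes in the table. Of the other genes of a YAP/TAZ target signature, described further below, 8 had a window and 4 of these held a TEAD core too. Both lists were picked as known YAP/TAZ targets, so these shares are no independent test of them. Over single windows, 11.9% of 35116 held at least 1 TEAD core, 0.940% at least 2, and 29 windows (0.0826%) at least 3. An AP-1 core was in 6.57% of windows, and both cores together in 1.06%. MYOF, NT5E and IGFBP3 showed neither set of letters in their windows. These are matches of letters, and binding was not measured. The 2 genes with the most TEAD cores, CCN2 and ANKRD1, were among the 4 least expressed of the 10 in both libraries.

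**Figure D1:**
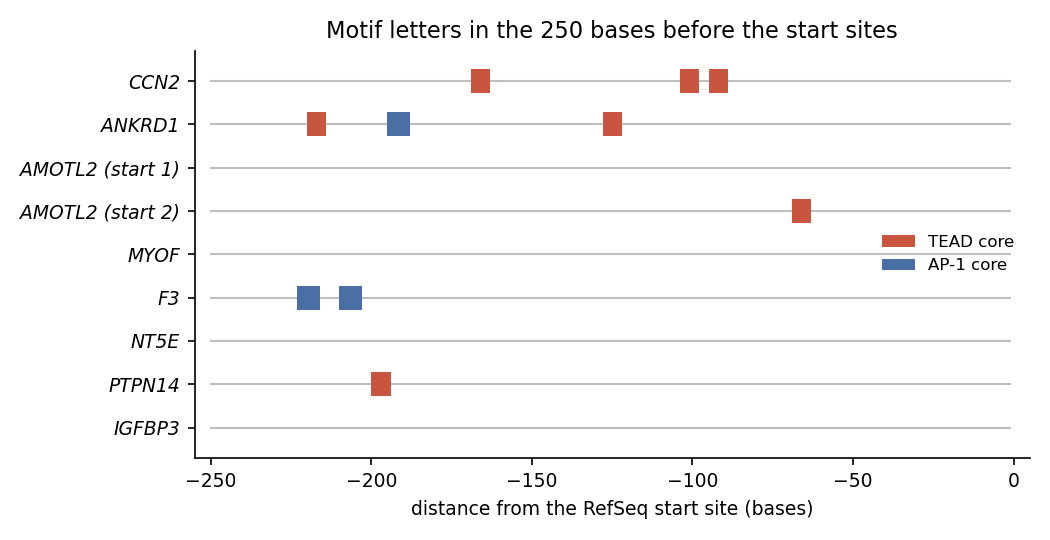
Positions of the TEAD core (GGAATG or CATTCC, red) and the AP-1 core (TGANTCA, blue) in the 250 bases before the RefSeq start sites of the 8 target genes with a promoter window, in bases from the start. CCN2 holds 3 TEAD cores and ANKRD1 holds 2, while MYOF, NT5E and IGFBP3 show none of either.

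The 10 genes differed far more from each other than between the libraries. IGFBP3, a secreted carrier of insulin-like growth factors, was the highest, at 49.2 FPKM in the control and 44.0 with LINC01133. Next came CCN1 (7.70 and 6.02), CRIM1 (4.88 and 5.83) and PTPN14 (4.20 and 5.51). AMOTL2 (1.88 and 1.60), MYOF (1.01 and 1.31), F3 (0.733 and 1.30) and CCN2 (0.955 and 0.734) lay near 1. NT5E (0.0704 and 0.0677) and ANKRD1 (0 and 0.0310) were close to the limit of counting. These levels are per length of all exons of a gene merged, which is longer than a single transcript by an amount that differs between genes.

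The order CCN1, CRIM1, PTPN14 held in both libraries, but only the control resolved it by the 95% counting intervals. In the control, CCN1 (6.84 to 8.62), CRIM1 (4.47 to 5.30) and PTPN14 (3.97 to 4.44) had intervals that did not overlap. In the LINC01133 library the 3 intervals ran from 5.29 to 6.83, from 5.40 to 6.29 and from 5.25 to 5.78, and overlapped. The order also rested on the length used. Per length of 1 transcript in place of merged exons, PTPN14 was at 6.07 and CRIM1 at 5.87 in the control, with intervals that overlapped, and at 7.96 and 7.02 in the LINC01133 library, where CCN1 was at 6.46. CCN2 stood above F3 in the control and below it with LINC01133, with overlapping intervals in both. Overlap alone does not show that levels are equal. Per length of 1 transcript the intervals of CCN2 and F3 still overlapped in the control, but not in the LINC01133 library. There the lower limit of F3 was 1.25 and the upper limit of CCN2 was 1.06. F3 was thus above CCN2 with LINC01133 by this length, while their order in the control was not resolved. MYOF, CCN2 and F3 could not be ordered in the control, where CCN2 ran from 0.665 to 1.33, and AMOTL2, MYOF and F3 could not be ordered in the LINC01133 library. Summed over the 10 genes, 5978 fragments came from the control and 6313 from the LINC01133 library, a ratio per counted fragment of 1.01 (0.979 to 1.05). IGFBP3 made up 58.9% and 51.9% of them, and without it the ratio was 1.19 (1.13 to 1.25). Over all genes detected in both libraries the median FPKM ratio was 1.15, so 1.19 was near that of genes in general. The summed fragments count long transcripts more, PTPN14 above all, with 1234 and 1685 fragments.

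**Figure D2:**
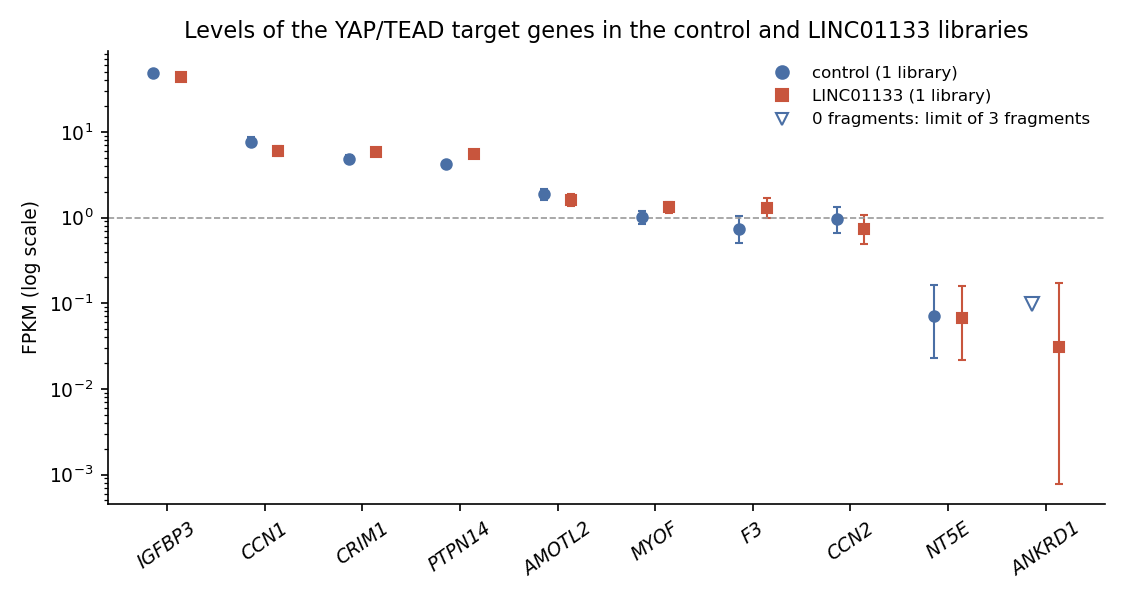
FPKM of the 10 target genes (log axis) in the control library (blue circles) and the LINC01133 library (red squares), with 95% Poisson counting intervals; the dashed line is FPKM 1, and the open triangle is the limit that 0 fragments allow. IGFBP3 stands at 49.2 and 44.0, far above the rest, while NT5E and ANKRD1 lie under 0.1.

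The comparison asks whether these genes differ in level when LINC01133 is overexpressed. The count took genes whose FPKM + 1 differed at least 2-fold, out of those with a mean FPKM over the libraries of 1 or more. Of the 10 genes, 7 were past this filter, with F3 (mean 1.02) and MYOF (1.16) just inside it and CCN2 (0.845) just outside. None of the 7 was 2-fold higher or lower, where 11.9% of the 11945 genes past the filter were higher and 0.444% lower. A share of 11.9% comes to less than 1 gene among 7, so this count sets the target genes apart from no other genes. Their median log2 ratio was 0.20, against 0.10 over all genes past the filter, and 4 of the 7 were above 0, against 55.4% of all. F3 passed the filter only through the LINC01133 library, where it was higher, and without it the median was 0.03, with 3 of 6 above 0. Scaling by a trimmed mean (of M values) or by median of ratios divides all ratios by 1.15, and the median of the same 7 genes was then 0.04. Either scaling also took F3 out of the filter, and the median of the 6 that were left was -0.12.

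By counting error alone, 4 of the 7 had a ratio whose 95% interval lay above 1 and 2 an interval below 1. These shares are near the background, since 42.6% of the 10942 genes with whole fragments had an interval above 1 and 32.2% below 1. The 4 were F3, PTPN14, MYOF and CRIM1, and the 2 were CCN1 and IGFBP3. AMOTL2 had an interval that held 1. The intervals cover counting error only, since fragments copied by PCR carry no molecular identifiers, and the spread between replicate cultures is unknown.

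Among the secreted products, CCN1 and IGFBP3 were lower in the LINC01133 library. CCN1, a matricellular protein that binds integrins, gave 296 fragments in the control and 241 with LINC01133. Its FPKM ratio was 0.782 (0.657 to 0.931), and its log2 ratio of FPKM + 1, -0.31, was the lowest of the 7. The gene lies on the plus strand of chromosome 1, at chr1:85580761-85583962 on GRCh38. IGFBP3 (chromosome 7, minus strand, chr7:45912245-45921874) had 3521 and 3278 fragments and a ratio of 0.895 (0.853 to 0.939), the narrowest of the intervals. The log2 ratios of both stayed below 0 under every scaling, pseudocount, prior and trend that was tried. CCN2, known as connective tissue growth factor, is a close relative of CCN1 and a widely used readout of YAP activity. It had 35 and 28 fragments, and its ratio of 0.769 was close to that of CCN1 but had an interval from 0.451 to 1.30, so that no difference was detectable at this depth. CCN2 (chr6:131948176-131951373) shares 8.34% of its exon bases with the gene AL133346.1 on the opposite strand.

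The products at the cell surface and in the membrane were on the other side of 1, or too few to tell. F3 encodes tissue factor, the receptor for coagulation factor VII that starts clotting. It had 33 and 61 fragments and the highest of the 9 ratios that could be given, 1.78 (1.14 to 2.80). CRIM1, a membrane protein with cysteine-rich repeats that binds bone morphogenetic proteins, had 544 and 677 fragments and a ratio of 1.20 (1.07 to 1.34). MYOF encodes myoferlin, which takes part in membrane repair and fusion. It had 134 and 181 fragments and a ratio of 1.30 (1.03 to 1.64), so its interval came close to 1. NT5E, also called CD73, makes adenosine from AMP outside the cell. It had 5 fragments in each library, and its ratio of 0.961 could lie anywhere from 0.221 to 4.18.

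The feedback genes parted. PTPN14, a tyrosine phosphatase that binds YAP, had 1234 and 1685 fragments and a ratio of 1.31 (1.22 to 1.41). It is the longest of the 10, with 18756 bases of merged exons at chr1:214348696-214552449, and shares 6.47% of them with the keratin pseudogene KRT18P12 on the opposite strand. AMOTL2, an angiomotin that tethers YAP at cell junctions, had 176 and 156 fragments, and its ratio of 0.852 (0.682 to 1.06) was not told from 1. Another gene on the same strand, the ribosomal protein pseudogene RPL39P5, shares 3.12% of its exon bases. ANKRD1, a nuclear cofactor best known from stretched heart muscle and among the most responsive YAP targets elsewhere, gave 0 fragments in the control and 1 with LINC01133. By a one-sided 95% limit a count of 0 allows up to 3 fragments, or an FPKM of 0.0968, and no ratio is given. The promoter printed above with 2 TEAD cores and an AP-1 core thus belongs to a gene with at most 1 counted fragment in a library.

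**Figure D3:**
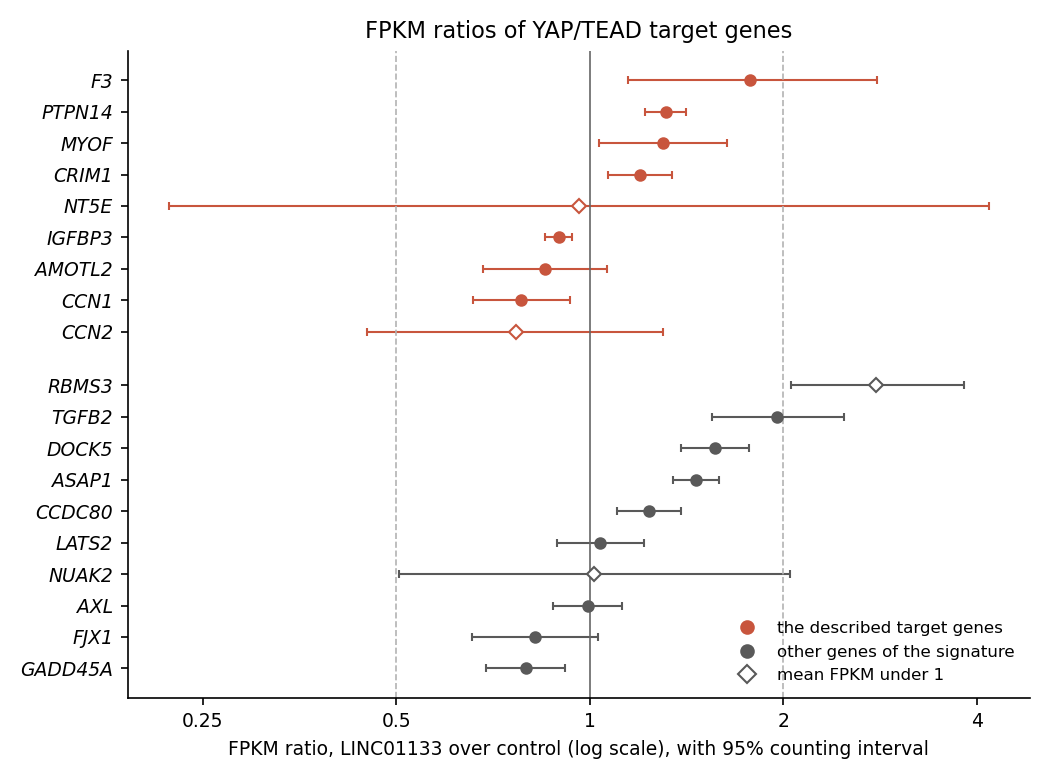
FPKM ratio of the LINC01133 library over the control (log axis) with 95% counting intervals, for the target genes (red) and for other genes of a YAP/TAZ target signature (grey); open diamonds have a mean FPKM under 1, and the dashed lines mark 2-fold. Among the red points F3 is the highest at 1.78 and CCN2 the lowest at 0.769; ANKRD1, FOXF2 and ARHGEF17 have no interval and are left out.

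Among the 7 target genes past the filter, the side of 1 went with the base composition of the transcript, but only in part with the trend over all genes. The 4 genes past the filter with a log2 ratio above 0 had a GC content from 43.7% to 47.2%, and the 3 below 0 from 49.5% to 56.7%. The trend of the log2 ratio on GC content over all genes crossed 0 at a GC content of 50.4%. IGFBP3 (49.5%) and CCN1 (50.3%), both below 0, thus lay just on the side where the trend was above 0. At the GC content of F3 (43.7%) the trend stood at 0.50, and the log2 ratio of F3 was 0.41. For PTPN14 the trend was 0.31 and the gene 0.32, for MYOF 0.25 and 0.20, and for CRIM1 0.20 and 0.22. On the other side, the trend at AMOTL2 (56.7%) was -0.27 and the gene stood higher, at -0.15. IGFBP3 (0.06 and -0.16) and CCN1 (0.01 and -0.31) were the 2 that stood lower than genes of like GC content by more than 0.2. Across the 7 genes, which share the same 2 libraries, the Spearman correlation of log2 ratio and GC content was -0.857, and over all 11913 genes with a value it was -0.801.

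**Figure D4:**
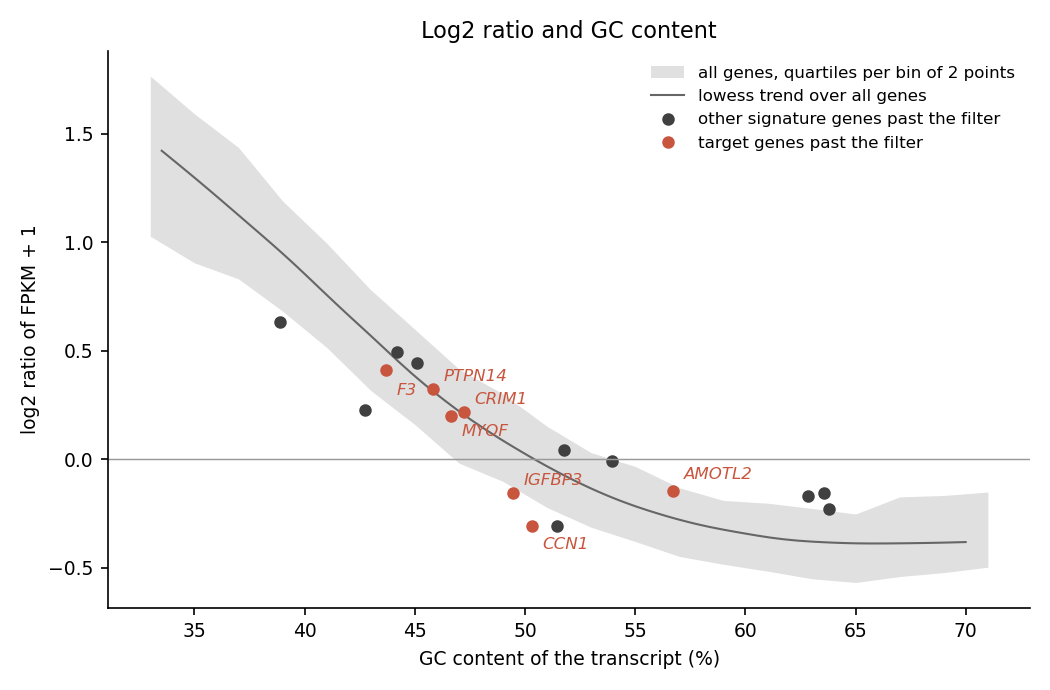
Log2 ratio of FPKM + 1 against GC content of the transcript (%), for the 7 target genes past the filter (red, named) and 10 other signature genes (dark), over the quartiles of all genes in bins of 2 points (grey band) and their lowess trend (line). F3, PTPN14, MYOF and CRIM1 lie close to the line above 0, while CCN1 at -0.31 lies under it.

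With the trends on GC content and transcript length subtracted, the 7 genes drew closer together. Their log2 ratios ran from -0.31 to 0.41 as deposited and from -0.17 to 0.20 after subtraction. All genes past the filter drew in as well, from quartiles of -0.28 and 0.63 to quartiles of -0.08 and 0.30. The highest was now AMOTL2 at 0.20, turned from -0.15, and the lowest was still CCN1 at -0.17. CRIM1 was at 0.06, F3 at 0.05, PTPN14 at 0.04 and IGFBP3 at -0.07, and MYOF at -0.0030. The median was 0.04, where all genes kept 0.10. None was 2-fold higher or lower, against 1.7% and 0.764% of the 11913 genes. After the same subtraction from a log2 ratio with a prior of 10 fragments, which shrinks genes with few fragments in place of low FPKM, F3 was at 0.23, AMOTL2 at 0.15 and CCN1 at -0.20, and PTPN14 turned to -0.03. The part of base composition in the ratios as deposited was not tested beyond these values.

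**Figure D5:**
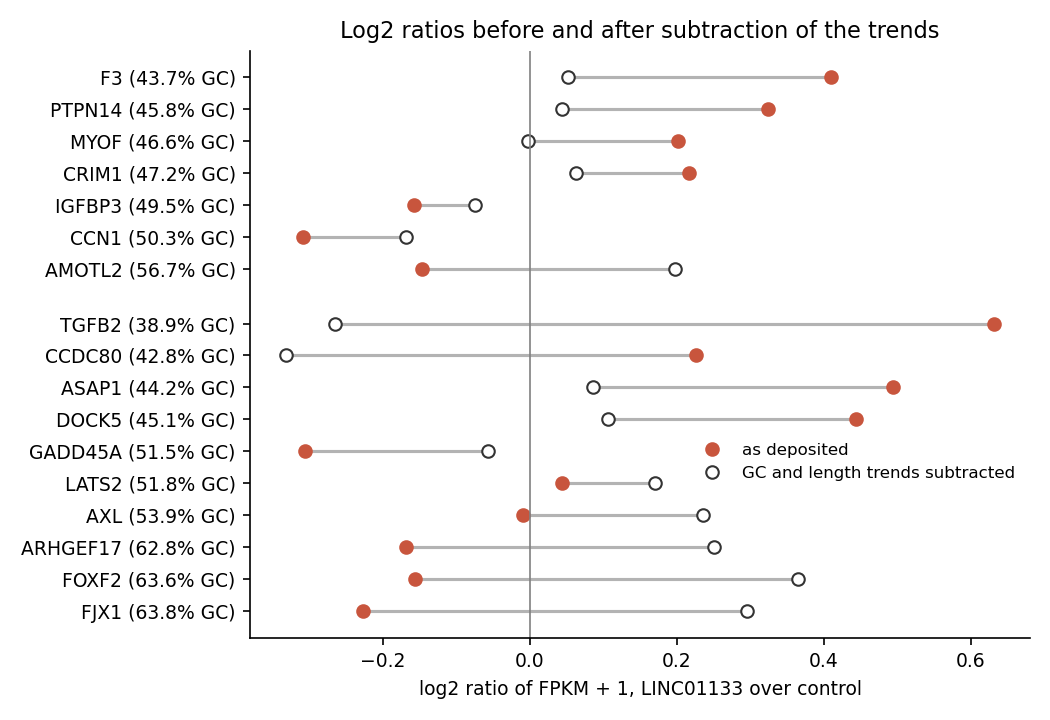
Log2 ratio of FPKM + 1 as deposited (red) and after both trends were subtracted (open circles), for the 7 target genes past the filter (top) and 10 other signature genes (bottom), each ordered by GC content. The target genes draw in from a span of -0.31 to 0.41 to a span of -0.17 to 0.20. The quartiles of all genes, not drawn here, drew in as well.

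The other genes of a published signature of YAP/TAZ targets, which holds the 10 genes as well, were examined the same way. All 12 were listed and 10 were past the filter. None was 2-fold higher or lower, 5 of 10 were above 0, and the median log2 ratio was 0.02. It was -0.15 with the trimmed-mean scaling and 0.14 with the trends subtracted. TGFB2, a ligand of the TGF-beta family, had an FPKM of 1.35 and 2.64, a ratio of 1.96 (1.55 to 2.48). ASAP1, a regulator of ARF GTPases, had 7.49 and 10.96 (ratio 1.46, 1.35 to 1.59), and DOCK5, an activator of RAC, had 1.75 and 2.74 (1.57, 1.39 to 1.77). The stress gene GADD45A was lower, at 13.5 and 10.8 (0.795, 0.690 to 0.915).

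The receptor kinase AXL, with 6.35 and 6.31, and the Hippo kinase LATS2, with 3.67 and 3.82, had intervals that held 1. FJX1 (4.51 and 3.71), FOXF2 (6.74 and 5.95), ARHGEF17 (7.01 and 6.12) and CCDC80 (2.60 and 3.21) completed the 10. Under the filter, RBMS3 had 58 and 168 fragments, a ratio of 2.78 (2.05 to 3.82), the highest of the signature, and NUAK2 had 18 and 19. The transcript of RBMS3 has a GC content of 36.6%, the lowest of the signature, and that of TGFB2 has 38.9%. With a prior of 10 fragments, the log2 ratio of RBMS3 went from 1.33 to -0.23 when the trends were subtracted. Those trends were fitted to genes past the filter, which RBMS3 was not. By log2 ratios of FPKM + 1, TGFB2 turned from 0.63 to -0.26 with the trends subtracted, and FOXF2, at 63.6% GC, from -0.16 to 0.36. Across these 10 genes, measured in the same 2 libraries, the Spearman correlation with GC content went from -0.770 as deposited to 0.939 after subtraction. Across the 7 target genes it went to -0.0357, and over all 11913 genes to 0.0608.

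Of 10 further reported targets 9 were listed and 3 were past the filter. BIRC5, the survival factor survivin, had 66.3 and 50.9 (ratio 0.768, 0.732 to 0.805). AJUBA, a LIM-domain adaptor, had 6.72 and 5.92, and AMOTL1 had 5.93 and 6.61. THBS1, a matricellular protein, had 67 and 146 fragments (ratio 2.09, 1.56 to 2.84). AREG, EDN1 and INHBA had at most 3 fragments in either library. The regulators themselves differed by gene. YAP1 had 7.94 and 16.95, WWTR1, which encodes TAZ, 3.32 and 5.48, and TEAD1 6.00 and 12.8, while TEAD2 (22.9 and 17.3), TEAD3 and TEAD4 were lower, with ratios of 0.754, 0.666 and 0.692. This split was kept only in part with the trends on GC content and length subtracted. The log2 ratio of YAP1 went from 1.01 to 0.54 and that of TEAD1 from 0.98 to 0.29, while WWTR1 turned from 0.59 to -0.12. TEAD2 turned from -0.39 to 0.07 and TEAD4 from -0.51 to 0.02, and TEAD3 went from -0.54 to -0.08.

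Paralogues of the target genes differed from them in several families. Within the CCN family, CCN3, formerly NOV, was higher in the LINC01133 library, with 305 and 505 fragments and a ratio of 1.59 (1.38 to 1.84), opposite to CCN1. Its log2 ratio of 0.60 was 0.50 with the trends subtracted. CCN5 had 31 and 19 fragments and CCN6 had 1 in each. Among the angiomotins, AMOT had 7.16 and 10.4 (1.46, 1.34 to 1.58), and with the trends subtracted all 3 were above 0, from 0.08 to 0.26. Of all genes 64.2% were then above 0, with a median of 0.10, so this count is near the background. MYOF held 134 of the 162 ferlin fragments in the control and 181 of 224 in the LINC01133 library. ANKRD2 and ANKRD23, relatives of ANKRD1, had at most 3 fragments.

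IGFBP3 was not the most abundant IGF binding protein. IGFBP4 had an FPKM of 179 and 114, IGFBP2 47.0 and 28.1, and IGFBP5 50.1 and 42.8. Their ratios were 0.633 (0.608 to 0.658), 0.598 (0.567 to 0.631) and 0.854 (0.820 to 0.889), beside 0.895 for IGFBP3. IGFBP2 and IGFBP4 have GC-rich transcripts, of 67.7% and 62.5%, and with the trends subtracted IGFBP2, IGFBP4 and IGFBP5 were at -0.14, -0.13 and -0.10, beside -0.07 for IGFBP3. IGFBP7, at 10.4 and 11.95, had a ratio of 1.15 (0.985 to 1.34), and its log2 ratio went from 0.18 to 0.47 by the same subtraction. That of IGFBP6 turned from -0.58 to 0.02. The receptor IGF1R had 4.03 and 4.02.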

How the data were processed

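The deposited FPKM values, 1 per gene and library, were read as made by the authors; the headers name no unit, and FPKM was inferred because value times merged exon length (GENCODE release 29, GRCh38) fell on whole fragments, within 0.02 of a fragment, for 94.5% and 94.4% of genes. RNA was poly(A)-selected, per the labels' protocols. HISAT2 2.1.0, Bowtie2 2.2.3, HTSeq 0.6.0 and GRCh38 are named without roles in the submitters' processing notes; the strand setting and the handling of overlapping genes are not given in the sources used here. Ratios are the LINC01133 library over the control, with a pseudocount of 1 for log2 values, which understates low genes. Intervals are 95%, exact Poisson for levels and Clopper-Pearson of the conditional share for ratios. GC content and length were those of 1 transcript per gene, the longest that is coding and has a 3′ UTR where there is one; trends were lowess fits (span 0.3) over genes past the filter. Python 3.11.15, scipy 1.17.1 and statsmodels 0.14.6 were used, and the calculations were tested on simulated data. Target genes and lists were chosen with earlier results of these data known. All 10 target genes were named, and other lists by size and level. Alternatives were other scalings, filters, pseudocounts, priors and folds, and subtraction of the trends. Some genes of the comparison and marker lists are not reported here.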

Additional observations from a re-analysis of the deposited data

How the results depend on the processing

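No paired analysis was possible because the groups were single libraries, and for the same reason none could be left out. Trends fitted on protein-coding genes only, trends subtracted with a prior of 10 fragments, scalings over a fixed set of genes, the median without F3, lower folds with other treatments of low values and levels per transcript length were chosen after seeing the data. No target gene past the filter was 2-fold higher or lower under any scaling, filter, pseudocount or trend tried. At 1.5-fold none was by FPKM + 1, while 1 gene, F3, was higher with a pseudocount of 0.1 (0.75) and with a prior of 10 fragments (0.67). By a counting interval that leaves out 1 in place of the fold, 4 were higher and 2 lower. The median log2 ratio of 0.20 became -0.12 by median of ratios and by a trimmed mean of M values (6 genes, since F3 left the filter; 0.04 over the same 7), 0.0202 with no filter, -0.16 at a mean FPKM of at least 5 (3 genes) and 0.0105 with trends from protein-coding genes. The signature median of 0.02 became -0.15 by both of these scalings, -0.10 by the upper quartile and -0.16 at a mean FPKM of at least 5. Apart from the genes that left the filter, the cause of these moves was not tested. By alternatives, AMOTL2 ran from -0.28 to 0.23, MYOF from -0.04 to 0.35 and F3 from 0.01 to 0.75. Depth limits CCN2, NT5E and ANKRD1 most.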

Other observations

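Genes related to NT5E, F3 and PTPN14, by function or as paralogues, were compared as values. Around NT5E, the last step in making adenosine outside the cell, ENTPD1, which supplies AMP, had 66 and 159 fragments in the control and LINC01133 libraries, a ratio of 2.31 (1.73 to 3.13). The adenosine kinase ADK had an FPKM of 17.8 and 24.1 (1.36, 1.25 to 1.48), and the deaminase ADA 17.4 and 11.2 (0.640, 0.572 to 0.716). Their GC contents were 42.6%, 41.7% and 57.9%, and after subtraction of the trends on GC content and length their log2 ratios were 0.04, -0.12 and -0.11. The receptors ADORA2B (5.25 and 5.63) and ADORA1 (3.72 and 3.12) had intervals that held 1, and ADORA3 was listed at 0.

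Around F3, its inhibitor TFPI had 52 and 149 fragments, a ratio of 2.75 (1.996 to 3.85) in a transcript of 35.1% GC. It was under the filter, at a mean FPKM of 0.532. Its log2 ratio of FPKM + 1 was 0.47, and -0.73 with the trends subtracted, where the GC trend stood at 1.29. The pseudocount shrinks ratios at so low a level, and the trends were fitted to genes past the filter. The value of -0.73 therefore does not show that TFPI was below genes of like GC content. The thrombin receptor F2R had an FPKM of 5.26 and 8.09 (1.54, 1.34 to 1.77), and its log2 ratio went from 0.54 to 0.20. F2RL1 was listed at 0 in both libraries. Around PTPN14, its paralogue PTPN21 had 2.79 and 3.43 (1.23, 1.06 to 1.43), the Hippo adaptor WWC2 5.02 and 9.53 (1.90, 1.74 to 2.07), its relative WWC1 3.86 and 3.98 (1.03, 0.923 to 1.15) and the kinase LATS1 1.66 and 3.48 (2.09, 1.78 to 2.46). WWC2 and LATS1 have AT-rich transcripts, of 43.1% and 39.7% GC, and went from log2 ratios of 0.81 and 0.75 to 0.28 and -0.09 by the same subtraction.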
